A study of Mus musculus with 30 samples.

Results

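The genes that write and remove DNA methylation were examined in mouse embryonic stem cells (ESCs) in which a phosphorylation regulator could be depleted by withdrawing doxycycline (Dox). The family comprised 7 genes, namely Dnmt1, Dnmt3a, Dnmt3b, Dnmt3l, Uhrf1, Tet1 and Tet2, and its members were taken as every row of the array table that carried one of these symbols. Of the 7 genes, 5 had rows, with 9 probes among the 25697 probes of the table, and 7 probes of 4 genes (Dnmt1, Dnmt3b, Dnmt3l and Uhrf1) were detected on at least 3 arrays and entered the tests. Both Dnmt3a probes were detected on 0 of 30 arrays. Tet1 was not analysed here, and Tet2 was read only through an older symbol, as given below.

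DNA methylation in mammals is placed almost entirely on the cytosine of CpG dinucleotides. Dnmt3a and Dnmt3b are the de novo methyltransferases, which methylate unmodified DNA, and Dnmt3l is a related protein without catalytic activity that binds and stimulates them. Dnmt1 copies the methylation pattern onto the new strand after replication and is brought to hemimethylated sites by Uhrf1. The Tet enzymes act in the opposite sense by oxidising methylated cytosine. In the mouse, Dnmt3b and Dnmt3l are abundant in pluripotent cells, Dnmt3b transcripts rise further in the epiblast, and Dnmt3l transcripts decline as cells differentiate.

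All cells derived from Ainv15, an ESC line that expresses the reverse tetracycline transactivator. In each rescue clone (Bub1b_R, Chek1_R, Ppm1g_R and Ppp2r1b_R) an shRNA lowers the endogenous mRNA of the named gene, and Dox switches on a copy that the shRNA cannot target, together with eGFP. Control_R is the control rescue clone, for which the labels also give the strain 129P2/OlaHsd. Every clone was grown either with 1 µg/ml Dox (+Dox) or for 5 days after Dox was removed (-Dox), with 3 arrays in each of the 10 conditions. The control arrays thus carried the same transactivator and the same exposure to Dox. The study established independent clones for each gene, but the labels do not tie an array to a clone or a culture, so that p-values measure only the spread between these samples. The labels describe culture on mouse embryonic fibroblasts, whereas the study's text states that the cells were kept without feeder cells for the 5 days.

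Values are normalized log2 signals, and a difference of 1 is a 2-fold change. A probe was called changed if it differed by at least 1.5-fold with an adjusted p under 0.05 in limma's test (Benjamini-Hochberg, over all 15151 probes tested). The arrays fell into 2 sets by signal level: the 12 arrays of Bub1b_R and Control_R had a lowest detected signal of 12.9 to 20.9, and the other 18 arrays had one of 27.8 to 58.1. Comparisons of Chek1_R, Ppm1g_R and Ppp2r1b_R with Control_R therefore cross the sets, and set and clone cannot be told apart there. By their sample numbers, the Control_R arrays were also deposited earlier than those of all rescue clones, Bub1b_R included. Deposit and clone therefore cannot be told apart in any comparison of level with Control_R. Signal of the targeted gene fell on Dox withdrawal in Ppm1g_R (log2 difference -1.25), whereas Chek1 signal was higher, not lower, without Dox in the arrays labelled Chek1_R (0.71). Bub1b and Ppp2r1b were not called on withdrawal in their own clones (-0.14 and 0.20, adjusted p = 0.22 and 0.37). The study rescued Bub1b and Chek1 with copies lacking the shRNA target, and Ppm1g and Ppp2r1b with copies holding silent changes in it. Whether a probe also reads the rescue copy is not known. In this design Dox switches on the rescue copy and is not described as acting on the shRNA. These values therefore do not settle the depletion of the endogenous mRNA in any clone. All 5 ESC markers examined (Pou5f1, Sox2, Nanog, Utf1 and Fgf4) were detected on all 30 arrays. In these bulk RNA samples, fewer cells of a type and less RNA per cell cannot be told apart.

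Dnmt3l, the regulatory partner of the de novo enzymes, lies at chr10:78042287-78063622 (GRCm38.p6) and is given first. RefSeq lists 3 starts for it. The 30 bases just before each start are shown because CpG (in capitals) is the target of the enzymes themselves, and because Dnmt3l and Dnmt3b carry the results that follow. Dnmt3b has 1 listed start (chr2, + strand, as are those of Dnmt3l). The gene interval of Dnmt3b begins upstream of this start, at chr2:153649411. Its 30 bases therefore lie inside that interval, as do those of Dnmt3l starts 2 and 3 inside theirs.
Dnmt3l start 1, chr10:78042257-78042286: cttaagctgtgatgggctgtttccttcttc
Dnmt3l start 2, chr10:78049812-78049841: cttaagaccCGcccctgagtgcctgccccc
Dnmt3l start 3, chr10:78055305-78055334: aggtagggaCGgaatgcttctatggccttt
Dnmt3b, chr2:153649419-153649448: gctacaagggcagCGgCGcCGccccctccc

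In the full 300-base window around each start (250 bases before and 50 after), the 3 Dnmt3l windows held 6, 4 and 3 CpG. The Dnmt3b window held 30. The median over all 32851 windows of this length in RefSeq was 7, and 88.3% of windows held fewer CpG than that of Dnmt3b. The positions of the probes in the transcripts were not used here.

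Dnmt3l was lower without Dox than with Dox in all 4 rescue clones, and it was called in the arrays labelled Chek1_R. On its brighter probe (ILMN_1250149), Chek1_R gave 12.47, 12.38 and 12.31 with Dox and 11.72, 11.64 and 11.76 without Dox. Ppp2r1b_R gave 11.50, 11.56 and 11.28 with Dox and 10.95, 10.89 and 10.95 without Dox. In both clones every -Dox array lay below every +Dox array. The drop was 1.60-fold in Chek1_R (log2 difference -0.68, SE 0.07, adjusted p = 7.2e-08) and 1.43-fold in Ppp2r1b_R (-0.51, SE 0.07, adjusted p = 1.3e-05), the latter under the fold limit. Without the third +Dox array of Ppp2r1b_R the difference was -0.60 and passed the limit.

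In Bub1b_R the values were 12.63, 12.86 and 12.88 with Dox and 12.51, 12.53 and 12.56 without Dox. In Ppm1g_R they were 12.91, 12.996 and 12.84 with Dox and 12.67, 12.68 and 12.67 without Dox. These shifts were small (log2 differences -0.26 and -0.24, SE 0.07, adjusted p = 0.011 and 0.017) but separated the arrays completely in both clones. Control_R gave 12.70, 12.81 and 12.83 with Dox and 12.62, 12.63 and 12.73 without Dox, so that its conditions overlapped (-0.12, SE 0.07, adjusted p = 0.37). The second Dnmt3l probe (ILMN_3112268) gave -0.71 in Chek1_R, which was also called, -0.49 in Ppp2r1b_R, -0.22 in Bub1b_R, -0.17 in Ppm1g_R and -0.0044 in Control_R. The mean change of the 4 clones was -0.42 (SE 0.04, adjusted p = 8.0e-10) on the brighter probe, a fall of 1.34-fold, and -0.33 over 3 clones without the arrays labelled Chek1_R (adjusted p = 4.2e-06). Leaving these arrays out was decided after the data were seen, because of their Chek1 signal.

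Set against the change in Control_R, the change in Chek1_R differed by -0.56 on the brighter probe (SE 0.10, adjusted p = 2.9e-04) and by -0.70 on the second (adjusted p = 1.7e-05), of which the latter was called. In Ppp2r1b_R the corresponding differences were -0.40 (adjusted p = 0.017) and -0.48 (adjusted p = 0.0041). In Bub1b_R and Ppm1g_R the differences from Control_R were -0.14 and -0.13 (adjusted p = 0.44 and 0.48). The change differed among the 4 clones in the F-test (adjusted p = 0.0051 and 9.2e-04 for the 2 probes), a test that 24% of all probes passed. Among the 3 clones other than Chek1_R the adjusted p was 0.14 and 0.094, and neither probe passed.

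**Figure D1:**
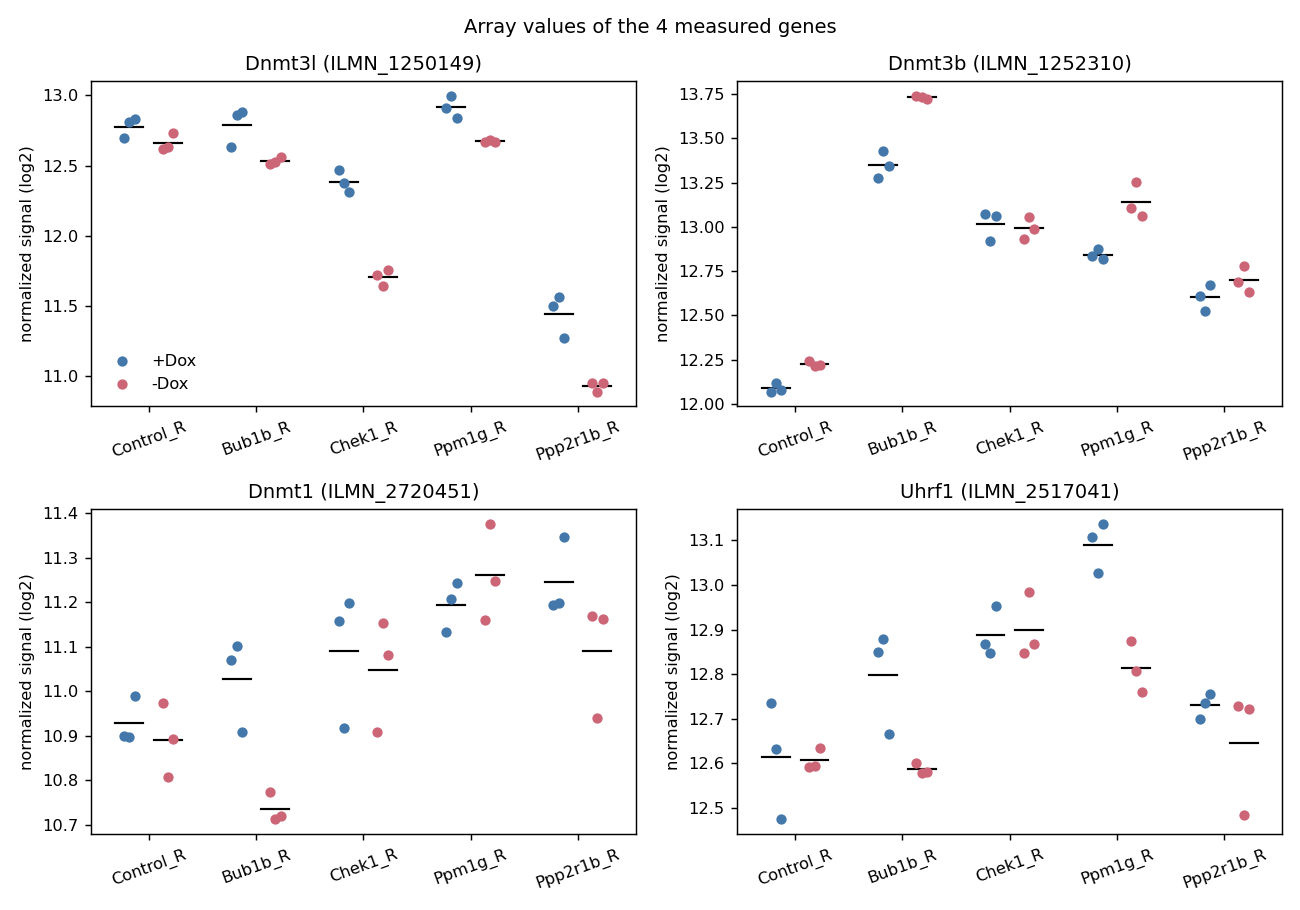
Normalized log2 signal (vertical axes, which do not start at 0) of the brighter probe of each of the 4 tested genes, by clone (horizontal axes). Each point is 1 array, blue with Dox and red after 5 days without, and each black bar is the mean of 3 arrays; Dnmt3l is lowest in Ppp2r1b_R (10.89 to 11.56) and Dnmt3b is lowest in Control_R (12.07 to 12.24).

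The clones also differed in Dnmt3l level while Dox was present. In order of the +Dox mean, Ppm1g_R (12.91), Bub1b_R (12.79) and Control_R (12.78) lay close together, the arrays of Bub1b_R overlapping those of both neighbours, followed by Chek1_R (12.39) and Ppp2r1b_R (11.45). Relative to Control_R, Dnmt3l was 2.51-fold lower in Ppp2r1b_R with Dox (log2 difference -1.33, SE 0.07, adjusted p = 2.0e-13) and 3.31-fold lower without Dox (-1.73, adjusted p = 9.4e-16). In Chek1_R it was -0.39 with Dox (adjusted p = 9.7e-05, under the fold limit) and -0.95 without Dox (adjusted p = 6.3e-11). Bub1b_R, which shares its array set with Control_R, differed by 0.01 with Dox and by -0.13 without Dox (adjusted p = 0.92 and 0.15).

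Because those comparisons cross the array sets, the clones of 1 set were also compared with each other without Dox. Ppm1g_R exceeded Ppp2r1b_R by 1.74 (SE 0.07, 3.34-fold, adjusted p = 2.3e-15), Chek1_R exceeded Ppp2r1b_R by 0.77 (adjusted p = 7.8e-09), and Chek1_R lay below Ppm1g_R by 0.97 on the log2 scale (a difference of -0.97, adjusted p = 4.2e-10). The order of Dnmt3l within this set was therefore Ppm1g_R, Chek1_R, Ppp2r1b_R, and each step was larger than the spread between arrays. The second probe gave 1.79, 0.77 and -1.01 for the same pairs.

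Dnmt3b, a de novo methyltransferase encoded at chr2:153649411-153687730, was higher in all 4 rescue clones than in Control_R, with or without Dox, and it passed the fold limit on the brighter probe in 3 of them. The exception was Ppp2r1b_R, whose difference was 0.51 with Dox and 0.47 without, but 0.078 and 0.027 with arrays scaled to their medians (adjusted p = 0.49 and 0.81). On the brighter probe (ILMN_1252310) Control_R gave 12.07, 12.12 and 12.08 with Dox and 12.24, 12.21 and 12.22 without Dox. Bub1b_R gave 13.28, 13.43 and 13.34 with Dox and 13.74, 13.73 and 13.72 without Dox. No array of any rescue clone came as low as the highest Control_R array. The lowest of them were those of Ppp2r1b_R, at 12.53 to 12.78, and Chek1_R and Ppm1g_R lay between 12.82 and 13.26.

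Without Dox, Dnmt3b was 2.84-fold higher than Control_R in Bub1b_R (log2 difference 1.504, SE 0.06, adjusted p = 5.4e-16), 1.88-fold higher in Ppm1g_R (0.91), 1.70-fold in Chek1_R (0.76) and 1.39-fold in Ppp2r1b_R (0.47, adjusted p = 2.9e-07, under the fold limit). With Dox the log2 differences were 1.26, 0.75, 0.93 and 0.51 in the same order. The second, dimmer probe (ILMN_3114377) gave 1.79, 1.46, 1.18 and 0.80 without Dox, all of them called. With an offset of 200 in place of 16, the call in Bub1b_R was kept, and the others fell under the fold limit (0.56, 0.43 and 0.26). That in Ppp2r1b_R was also lost with an offset of 50 (0.58). With Dox the dimmer probe was called in Bub1b_R (1.22), Chek1_R (1.14) and Ppm1g_R (0.96). With an offset of 200 these values were 0.495, 0.45 and 0.37, and all of these calls were lost, that in Bub1b_R included. The difference in Bub1b_R lies within an array set by signal level, but Control_R was deposited earlier than Bub1b_R. For the other clones the difference crosses the sets as well, and the part of set and deposit was not tested.

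Withdrawal of Dox moved Dnmt3b less than the clones differed. The brighter probe was higher without Dox in Bub1b_R (0.38, SE 0.06, adjusted p = 3.9e-05) and in Ppm1g_R (0.30, SE 0.06, adjusted p = 7.3e-04), both under the fold limit although no arrays overlapped in either clone. With scaling to the median the value in Ppm1g_R was 0.14 (adjusted p = 0.32). It was -0.03 in Chek1_R and 0.10 in Ppp2r1b_R (adjusted p = 0.79 and 0.26). In Control_R the arrays of the brighter probe did not overlap either, but the 2 probes went in opposite directions, 0.14 on the brighter (adjusted p = 0.19) and -0.26 on the dimmer (adjusted p = 0.16), and neither passed. Relative to Control_R, the dimmer probe gave 0.57 in Bub1b_R (adjusted p = 0.016) and 0.50 in Ppm1g_R (adjusted p = 0.033), whereas the brighter probe gave 0.25 and 0.16 (adjusted p = 0.063 and 0.24). The F-test among the 4 clones gave adjusted p = 0.0032 and 0.042 for the 2 probes, and 0.066 and 0.38 among 3 clones without the arrays labelled Chek1_R.

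**Figure D2:**
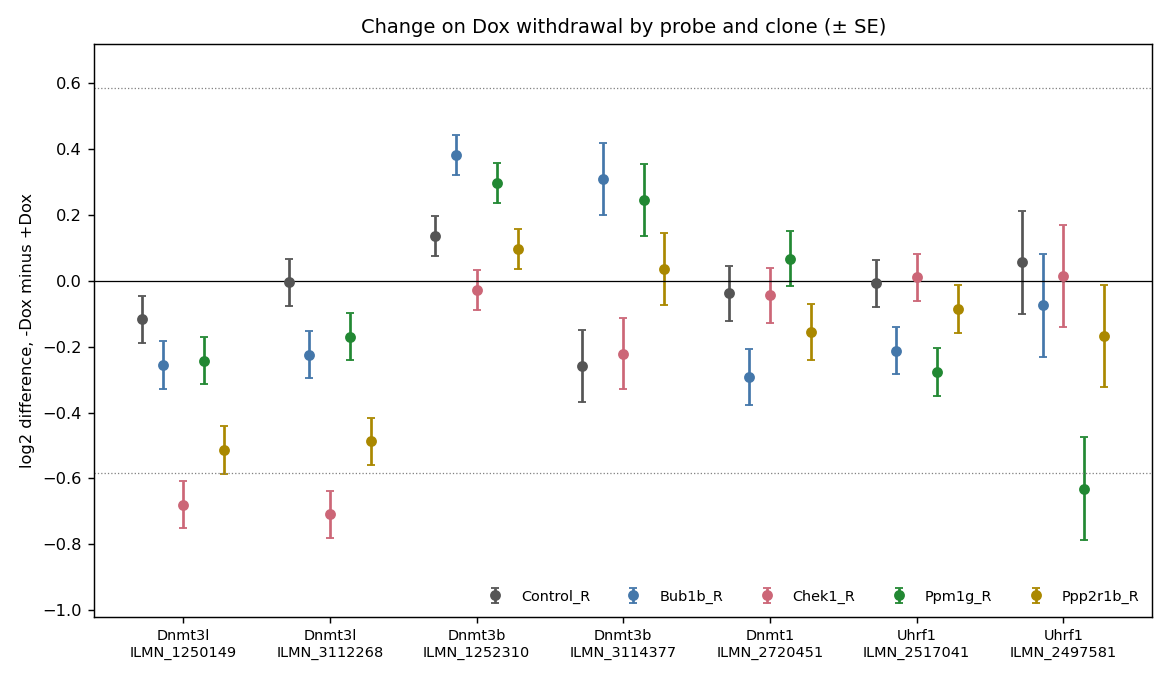
Log2 difference between -Dox and +Dox (vertical axis) for the 7 tested probes, with 1 point per clone and SE bars from the limma fit; dotted lines mark 1.5-fold. Both Dnmt3l probes are below 0 in all 4 rescue clones and pass the lower line in Chek1_R (-0.68 and -0.71), and both Dnmt3b probes are above 0 in Bub1b_R and Ppm1g_R.

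Dnmt3a, the other de novo enzyme (chr12:3801559-3914443), was represented by probes ILMN_1224446 and ILMN_1259562. Background-subtracted signals ran from -34.5 to 0.1 and from -36.9 to -3.6, so that neither probe rose above background on any array and no level or difference can be given.

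Uhrf1, which recruits Dnmt1 (chr17:56303337-56323486), changed little. On its bright probe (ILMN_2517041) Ppm1g_R gave 13.11, 13.03 and 13.14 with Dox and 12.88, 12.81 and 12.76 without Dox, with no overlap. The log2 difference was -0.28 (SE 0.07, adjusted p = 0.0066), under the fold limit. Bub1b_R differed by -0.21 (SE 0.07, adjusted p = 0.033), Ppp2r1b_R by -0.09, Chek1_R by 0.01 and Control_R by -0.01. Against Control_R with Dox, Ppm1g_R was 1.39-fold higher (0.48, adjusted p = 4.4e-06), again under the limit. The differences in Ppp2r1b_R were 0.12 with Dox and 0.04 without, and turned to -0.37 and -0.44 when arrays were scaled to their medians.

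A second Uhrf1 probe (ILMN_2497581) was near background and detected on 13 of 30 arrays. In Ppm1g_R it was detected on all 3 arrays with Dox and on 0 of 3 without Dox, where it was at least 1.31-fold lower. This bound was not itself tested. The fitted difference of -0.63 was called (adjusted p = 0.0044 in limma's test). It was -0.38 and -0.14 with offsets of 50 and 200 in place of 16, and was no longer called. Against Control_R with Dox, where 0 of 3 arrays detected it, Ppm1g_R was at least 1.42-fold higher. The fitted difference there was 0.63 (adjusted p = 0.0013 in limma's test), a call that was also lost with both offsets.

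Dnmt1, the maintenance methyltransferase (chr9:20907206-20959888), had 1 probe (ILMN_2720451) and was called in no comparison. Its clearest shift on withdrawal was in Bub1b_R, from 11.07, 11.10 and 10.91 with Dox to 10.77, 10.71 and 10.72 without Dox (-0.29, SE 0.08, adjusted p = 0.012). Every -Dox array lay below every +Dox array. The other differences on withdrawal were -0.04 in Chek1_R, 0.07 in Ppm1g_R, -0.16 in Ppp2r1b_R and -0.04 in Control_R, with adjusted p between 0.19 and 0.85. Against Control_R without Dox the largest value was 0.37 in Ppm1g_R (1.29-fold, adjusted p = 4.8e-04). In Ppp2r1b_R it was 0.20, and -0.11 with scaling to the median.

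Counted over the 7 tested probes, the calls on Dox withdrawal were few. In Chek1_R, 2 probes were called, both lower and both of Dnmt3l, where 9.27% of all probes were called (4.77% lower). In Ppm1g_R, 1 probe was called (the dim Uhrf1 probe), against 4.37% of all probes. No member probe was called in Bub1b_R (5.6% of all probes), in Ppp2r1b_R (4.82%), in Control_R (1.1%) or in the mean of the 4 clones (3.56%). With limma's adjusted p alone and no fold limit, 6 of the 7 probes passed in the mean of the 4 clones, and 46.4% of all probes did. Relative to the change in Control_R, 1 member probe was called in Chek1_R (8.99% of all probes) and 1 in Ppm1g_R (5.27%), and none in Bub1b_R (5.15%) or Ppp2r1b_R (3.28%). Over the 4 genes, the median of the mean change was -0.12, beside -0.01 for all probes.

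More member probes were called between clones than on withdrawal, and the shares of all probes were mostly higher too. The called probes were largely the paired probes of Dnmt3b and Dnmt3l. Whether the counts exceed the shares of all probes was not tested. Without Dox, 2 probes were called against Control_R in Bub1b_R, 4 in Chek1_R, 2 in Ppm1g_R and 3 in Ppp2r1b_R, where 22.6%, 28.8%, 33.5% and 33.7% of all probes were called. With Dox the counts were 2, 2, 3 and 2, against 12.7%, 17.6%, 29.1% and 28.3%. Between clones of 1 array set, 3 probes were called for Ppm1g_R against Ppp2r1b_R (19.9% of all probes), 2 for Chek1_R against Ppp2r1b_R (13.7%) and 2 for Chek1_R against Ppm1g_R (7.42%). The comparisons with Control_R share its arrays.

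**Figure D3:**
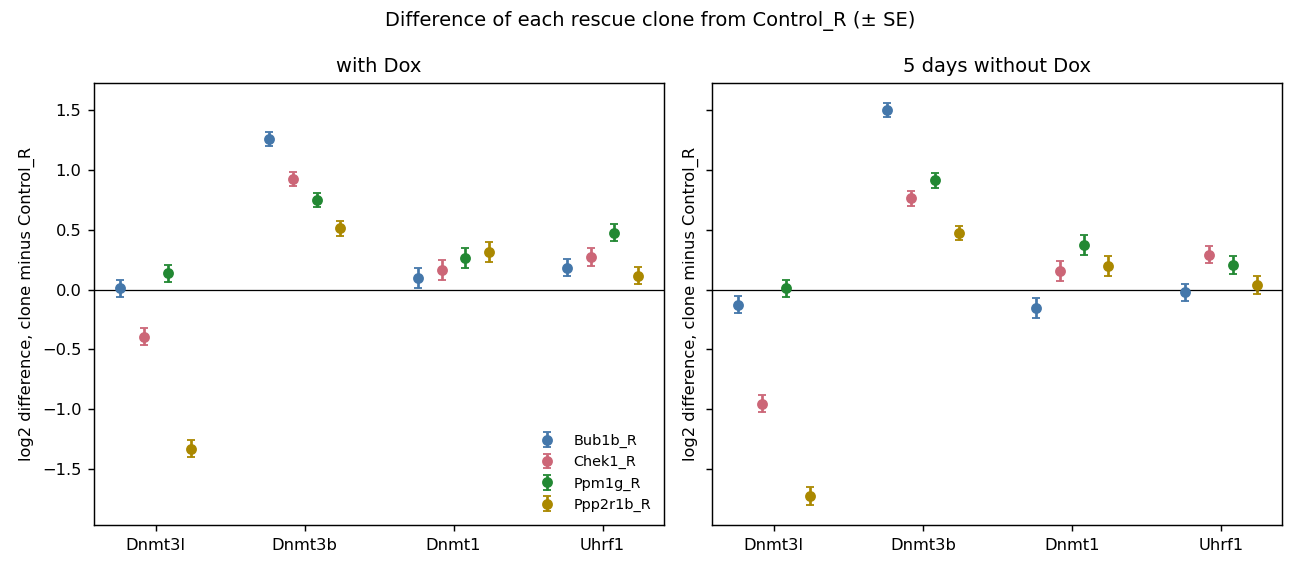
Log2 difference of each rescue clone from Control_R (vertical axes) with Dox (left) and after 5 days without Dox (right) for the brighter probe of each gene; points are limma estimates and bars their SE. Dnmt3b lies above 0 in every clone (0.47 to 1.504), and Dnmt3l lies furthest below 0 in Ppp2r1b_R (-1.33 and -1.73).

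Tet2 carries no row under its present symbol. Probe ILMN_2630039 is listed under E130014J05Rik, which RefSeq gives as a synonym of Tet2, and was kept apart from the counts above. It was detected on all 30 arrays, with signals of 34.5 to 112.6. Control_R gave 6.92, 6.88 and 6.90 with Dox and 6.75, 6.97 and 6.97 without Dox, above every array of every rescue clone (5.65 to 6.53). With Dox the rescue clones were lower than Control_R by log2 differences of -0.61 in Bub1b_R, -0.77 in Chek1_R, -0.73 in Ppm1g_R and -0.85 in Ppp2r1b_R (SE 0.13), all called. Without Dox they were -0.78, -1.04, -0.46 and -1.06, and that in Ppm1g_R was under the fold limit. No change on withdrawal was called (-0.28 to 0.27, adjusted p between 0.11 and 1.0). The probe is dim, and with an offset of 200 in place of 16 the called differences from Control_R were -0.21 to -0.33, none past the fold limit. The call in Bub1b_R with Dox was also lost with scaling to the median (-0.54).

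The members did not vary as a block over the 30 arrays. The probes of Dnmt3l agreed closely (Pearson r = 0.99), as did those of Dnmt3b (r = 0.93), but Dnmt3l and Dnmt3b were almost unrelated (r = 0.10) and Dnmt1 and Uhrf1 gave r = 0.58. These correlations describe 30 arrays that share 10 conditions and 2 array sets. Among all other genes tested, those whose pattern was most like that of Dnmt3l were Tagln3 (r = 0.96), Rps6kl1 (0.96) and Taf5 (0.96). For Dnmt3b they were Srf (0.94), Snn (0.94) and Zswim4 (0.92), for Uhrf1 Prune (0.88), Eef1e1 (0.87) and D4Bwg0951e (0.86), and for Dnmt1 Cdc42ep3 (0.86), 2210418O10Rik (0.85) and Ndufb5 (0.84).

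Other genes of the pathway were read in the mean of the 4 clones, where 3.56% of all probes were called, so that a count of 0 in a short list does not set it apart. Of 12 tested partners and targeting factors 0 were called. Dppa3 was at -0.36 (adjusted p = 5.4e-08), the histone methyltransferase Suv39h1 at 0.32 and Zfp57, which guards imprinted methylation, at -0.26. Of the 5 tested readers of methylated DNA, 0 were called, with Zbtb38 at 0.34 and Zbtb33 at 0.27. The median of the readers was 0.27, beside -0.01 for all probes.

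For demethylation and removal of oxidised bases, 0 of 10 genes were called, beside the same 3.56% of all probes, and the values furthest from 0 were those of Idh2 (-0.29), Idh1 (-0.21) and Parp1 (-0.20). For the supply of methyl donors, 0 of 9 were called, with the glycine methyltransferase Gnmt at -0.44, Gldc, which cleaves glycine, at -0.35 and Mthfd1 at -0.21. Of 9 germline genes that promoter methylation keeps silent in somatic cells, 0 were called in the mean of the 4 clones, and their median was -0.23. Tex19.1 was at -0.51, Dazl at -0.47 and Taf7l at -0.46, with adjusted p of 2.8e-10, 1.8e-08 and 1.8e-04. By clone, 1 germline gene was called lower in Chek1_R and 2 in Ppp2r1b_R, and 0 in Bub1b_R, Ppm1g_R and Control_R, where 4.77%, 2.05%, 2.67%, 2.07% and 0.396% of all probes were called lower.

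Lists of cell state markers were followed as well. Of 10 genes of the primed epiblast and primitive streak, 7 rose in the mean of the 4 clones (2.18% of all probes rose), among them T (log2 difference 2.43), Evx1 (2.41) and Mixl1 (2.15), which mark the streak. By clone, 7 rose in Bub1b_R and in Chek1_R, 5 in Ppm1g_R, 3 in Ppp2r1b_R and 1 in Control_R, where 2.94%, 4.49%, 2.3%, 2.77% and 0.706% of all probes rose. Otx2 of this list, a factor of the epiblast and forebrain, fell in Chek1_R (-0.87) and in Ppm1g_R (-0.77). Of 8 naive pluripotency genes 1 fell, namely Tcl1 (-0.64), with Esrrb at -0.47 and Klf2 at -0.43. By clone, 3 naive genes fell in Ppp2r1b_R and 1 in Bub1b_R, where 2.05% and 2.67% of all probes fell. Mean Tcl1 was also lower without Dox in Control_R (11.18 to 10.79), as were Esrrb (13.85 to 13.54) and Klf2 (11.94 to 11.79). Tcl1 shifted no more than that in Chek1_R (10.82 to 10.46) and Ppm1g_R (11.00 to 10.65). It shifted more in Bub1b_R (10.94 to 10.07) and Ppp2r1b_R (10.55 to 9.58). Of 11 proliferation genes 0 were called, with Tyms at 0.22, Mcm3 at -0.20 and Mcm2 at -0.18.

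Of the 5 ESC markers, Fgf4 (-0.70) and Utf1 (-0.59) fell in the mean of the 4 clones, and Pou5f1 was at -0.37. Their summed normalized level, in which the bright Nanog and Pou5f1 weigh most, was lower without Dox in all 4 rescue clones, as Dnmt3l was. The size of the shift in this sum did not follow that of Dnmt3l, which does not speak for each marker alone. The sum was 13135 to 14631 with Dox and 9668 to 10316 without Dox in Ppp2r1b_R, where Dnmt3l was lowest. It was 15469 to 16179 and 13580 to 14757 in Chek1_R, 14509 to 14882 and 11476 to 12029 in Bub1b_R, and 16681 to 18380 and 14366 to 14985 in Ppm1g_R. The arrays labelled Chek1_R thus had the largest Dnmt3l difference of the 4 clones (-0.68) and the smallest shift of this sum, and Bub1b_R had a larger shift of the sum with a Dnmt3l difference of -0.26. In Control_R the conditions overlapped, at 15397 to 16334 with Dox and 15474 to 16043 without. Utf1 taken alone fell in the clone order of Dnmt3l. Its mean went from 10.84 with Dox to 10.04 without in Chek1_R and from 10.34 to 9.66 in Ppp2r1b_R. It went from 10.59 to 9.96 in Bub1b_R and from 10.36 to 10.09 in Ppm1g_R, beside 10.68 and 10.70 in Control_R. None of the other markers kept this order. The part of these markers in the Dnmt3l differences was not tested.

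Fibroblast markers were followed because the cells had been grown on feeders. Of 7 tested markers, Dcn (0.98) and Col1a1 (0.89) rose in the mean of the 4 clones and Thy1 was at -0.44. Col1a2, Lum and Postn were detected on no array. By clone, Dcn differed by 0.68 in Bub1b_R, 1.56 in Chek1_R, 0.83 in Ppm1g_R and 0.84 in Ppp2r1b_R, all called, and by 0.14 in Control_R. Col1a1 differed by 0.58, 1.06, 0.91 and 1.03 in the same order, called in all but Bub1b_R, and by -0.12 in Control_R. The summed normalized level of the 10 markers, most of which is the signal of Acta2, was 8948 to 9975 with Dox and 11197 to 11973 without Dox in Bub1b_R, and 5813 to 6092 and 8876 to 9587 in Ppm1g_R. It was 8141 to 8887 and 6817 to 7242 in Chek1_R, 5792 to 6008 and 5077 to 5243 in Ppp2r1b_R, and 5378 to 5762 and 4845 to 5062 in Control_R. The sum followed Acta2, which differed on withdrawal by 0.33 in Bub1b_R, 0.72 in Ppm1g_R, -0.37 in Chek1_R, -0.35 in Ppp2r1b_R and -0.21 in Control_R, and not Dcn and Col1a1. The part of these markers in the differences of Dnmt3b and Dnmt3l was not tested.

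**Figure D4:**
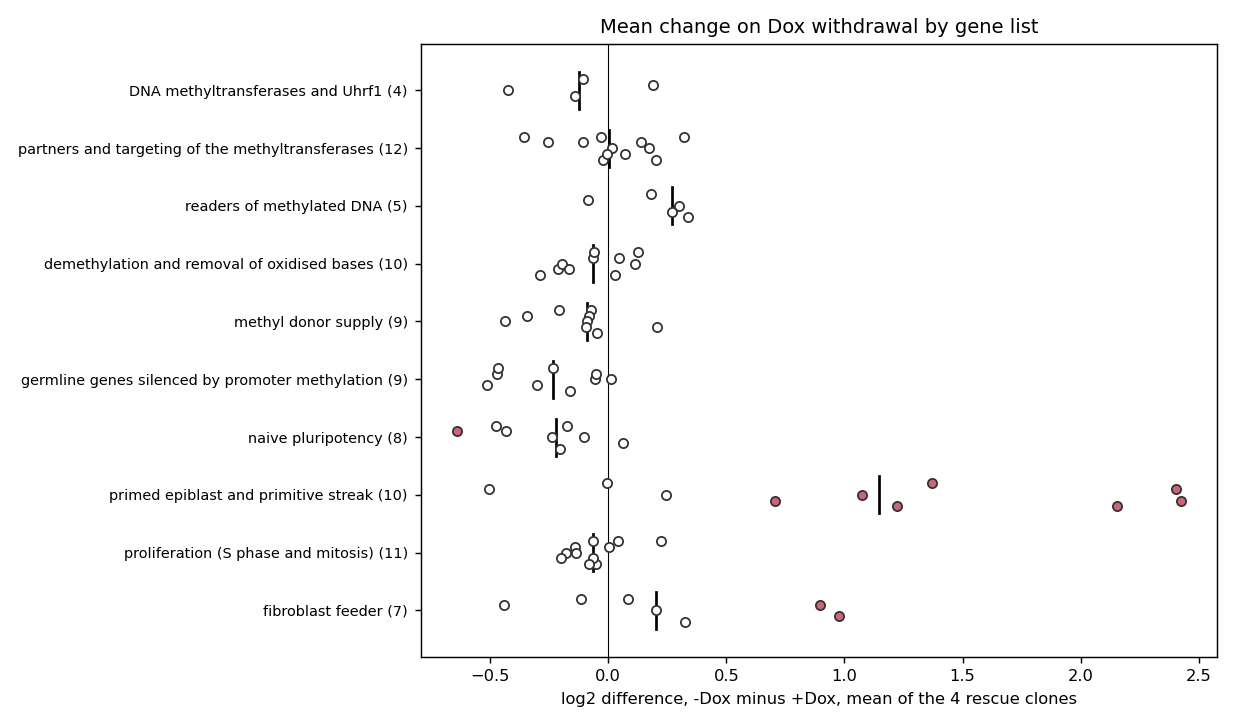
Mean log2 difference between -Dox and +Dox over the 4 rescue clones (horizontal axis) for each tested gene (points, brightest probe) of each list (rows, number of genes in brackets); filled points were called and black bars are list medians. The methylation genes and their partners lie between -0.42 and 0.32, whereas 7 of the 10 primed epiblast and primitive streak genes were called higher, up to 2.43 for T.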

How the data were processed

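Total RNA of 30 samples was hybridised to Illumina Mouse WG8-V2 arrays. The authors deposited a background-subtracted signal intensity for each probe, without normalization across arrays, and a detection p-value; the submitters' processing notes name lumi, without a version or role. Of these p-values, 60 cells were spreadsheet dates or times, and were turned back into fractions or given the p of the nearest signal; no member was among them. Signals were background-corrected by normexp fitted through the detection p-values (offset 16), quantile normalized over all arrays and log2 transformed (limma 3.58.1, R 4.3.3). The filter required detection (p under 0.05) on 3 or more arrays and left 15151 probes of 11177 symbols.

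All comparisons came from 1 limma fit of the 10 condition means (20 residual degrees of freedom), with Benjamini-Hochberg adjustment within each comparison. Fold changes include the offset, which makes changes of dim probes smaller. The number of arrays limits the precision. The fit was tested on simulated data with normal noise (15151 probes, 200 changed between the Chek1_R conditions). Of the changed probes 89.5% were recovered, with 4 false calls. The planted changes were larger than every member change on withdrawal, so that this share does not speak for smaller changes.

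Members and lists were chosen with earlier results of these data known. The text names all 7 members with all probes, the brightest probe standing for a gene, the 3 most similar genes by Pearson r, the 3 genes of each list with the largest mean change, and the depleted genes; 1 gene that this rule names is not reported here. Of the members, 5 matched by symbol and Tet2 by a RefSeq synonym. Sequences and positions are from RefSeq, GRCm38.p6, with 14 windows for the 7 members. Alternatives tried were another background correction, normalization, offset, filter, fold limit, fit or test, and each array left out.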

Additional observations from a re-analysis of the deposited data

Results flagged for a closer look

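The change on Dox withdrawal differed between clones for 2 members. By limma's F-test among the 4 rescue clones, the adjusted p was 0.0032 and 0.042 for the 2 Dnmt3b probes and 0.0051 and 9.2e-04 for the 2 Dnmt3l probes. This test was passed by 24% of all probes. With scaling to the median 1 member probe passed it, and without the arrays labelled Chek1_R 0 did. Compared with the change in Control_R, Dnmt3l differed in Chek1_R by -0.56 and -0.70 and in Ppp2r1b_R by -0.40 and -0.48 on the log2 scale. The dimmer Dnmt3b probe differed by 0.57 in Bub1b_R and 0.50 in Ppm1g_R, and the brighter one by 0.25 and 0.16, short of the threshold. The dim Uhrf1 probe differed in Ppm1g_R by -0.69, where no -Dox array detected it. The groups hold 3 arrays each, too few to look for single outlying arrays.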

How the results depend on the processing

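The direction of all called differences was kept under every alternative run. The number of calls of member probes depended on the fold limit. Calls are summed here over the comparisons of a kind, so that each of the 7 tested probes can count in every comparison. With a limit of 2-fold it went from 3 to 0 for Dox withdrawal, from 2 to 0 relative to Control_R, from 11 to 7 and from 9 to 5 against Control_R without and with Dox, and from 7 to 3 between clones. With no fold limit it was 14, 7, 17, 18 and 12, and 6 in the mean of the 4 clones, where 46.4% of all probes passed. For the other comparisons the share of all probes without a fold limit is not given here. An offset of 200 left 5 calls against Control_R with Dox and 8 without. Relative to Control_R, 1 probe was left with an offset of 50 or 200, without the detection filter, with the strict detection filter and with only the arrays compared. Leaving out 1 array gave 1 to 3 there. In each of these settings but the fold limits the call lost was that of the dim Uhrf1 probe, which was lost without replicate 1 of Control_R with or without Dox, replicate 1 or 2 of Ppm1g_R without Dox, or replicate 1 or 3 of Ppm1g_R with Dox (-0.44 to -0.68). For the F-test, scaling to the median left 1 of 4 probes, and leaving out the arrays labelled Chek1_R left 0, and 1 of 3 for Dox withdrawal; this last alternative was chosen after seeing the data. With the methods' t-test, 2 probes were called on Dox withdrawal after Benjamini-Hochberg adjustment. Counts against Control_R with quantiles taken within each array set, and the F-test with other fold limits, were not run, nor was the methods' t-test for the change relative to Control_R or the mean of the clones.

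Same-numbered arrays showed no strong shared deviation (r = -0.08 to 0.13, 1 of 15 pairs over 0.1). This cannot show whether a number marks a shared culture or day, which the labels do not say. With the replicate block, 1 probe in place of 2 was called relative to Control_R and 3 in place of 4 in the F-test, and no other count changed.

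The values that changed sign were all uncalled. Scaling to the median, which moved the median of all probes by up to 0.20, gave the following. Dnmt1 was at 0.075 in Bub1b_R and -0.11 in Ppp2r1b_R against Control_R without Dox, 0.37 for Chek1_R minus Ppp2r1b_R, 0.076 and -0.040 for withdrawal in Chek1_R and Ppm1g_R, and 0.085 and -0.030 relative to Control_R. Dnmt3b was at 0.089 for Chek1_R minus Ppm1g_R and 0.039 for withdrawal in Chek1_R. Dnmt3l was at 0.081 and -0.20 in Bub1b_R and Ppm1g_R against Control_R without Dox. Uhrf1 was at 0.20 in Bub1b_R and -0.44 in Ppp2r1b_R against Control_R without Dox, and -0.37 in Ppp2r1b_R with Dox.

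With the mean of all tested probes of a gene, Dnmt3b was at -0.061 for withdrawal in Control_R and 0.13 for Ppp2r1b_R relative to it, and Dnmt3l at -0.0026 for Ppm1g_R against Control_R without Dox. Uhrf1 was at 0.038 and -0.15 in Bub1b_R and Ppp2r1b_R against Control_R without Dox, -0.0011 in Ppp2r1b_R with Dox, 0.024 for withdrawal in Control_R and -0.012 for Chek1_R relative to it. Leaving out 1 array gave ranges across 0. For Dnmt1 they were -0.13 to 0.026 for withdrawal in Chek1_R, -0.093 to 0.064 relative to Control_R, -0.12 to 0.027 for Chek1_R minus Ppp2r1b_R, and -0.078 to 0.0041 for withdrawal in Control_R. For Dnmt3b, withdrawal in Chek1_R gave -0.078 to 0.0015. For Dnmt3l, Bub1b_R against Control_R with Dox gave -0.032 to 0.090, and Ppm1g_R without Dox -0.0089 to 0.045. For Uhrf1, withdrawal gave -0.032 to 0.043 in Chek1_R, -0.043 to 0.088 for that clone relative to Control_R, -0.077 to 0.053 in Control_R, -0.14 to 0.0029 for Ppp2r1b_R relative to it, and Ppp2r1b_R against Control_R without Dox gave -0.0028 to 0.12.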
